A study of Mus musculus with 16 samples.

Results

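Sinusoidal endothelial cells line the capillaries of the liver, and 10 of the genes that mark them were followed in cultured mouse hepatocytes treated with SQ1 or pravastatin. The genes were Stab1, Stab2, Lyve1, Clec4g, Pecam1, Cdh5, Kdr, Tek, Eng and Nos3, and their probes were found through the RefSeq accession that each probe carries. They are 10 of 20659 named genes on the array, and all 10 were among the 15053 genes bright enough to test. Hepatocytes of male C57Bl/J mice had been plated and kept in Williams Medium E, and treatment began 48 h after plating and lasted 48 h. The treated groups received SQ1 at 100 µM or pravastatin at 30 µM per the labels, and the control group was left untreated. SQ1, or squalestatin 1, blocks squalene synthase and pravastatin blocks HMG-CoA reductase, an earlier step of cholesterol synthesis. Squalestatins act at far lower doses in most cell systems, so that its labelled unit may not be right, and the 2 doses are not matched. No age of the mice is given in the sources used here.

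Each of the 16 arrays compared RNA of treated cells with RNA of untreated cells in the other dye, 8 arrays for SQ1 and 8 for pravastatin. Treated RNA was in the red dye for replicates 1 to 4 and in the green dye for replicates 5 to 8. The arrays lay on 4 slides, with SQ1 on slides 1 and 2 and pravastatin on slides 3 and 4, and each slide held both dye orientations. The median spot intensity of an array was 116 to 145.5 in red and 86 to 122 in green, and 58.9% to 69.6% of probes were well above background by the scanner program's own mark. The same-numbered arrays of both drugs appear to share a control culture, so that the comparisons with SQ1 and with pravastatin are not independent and their values stand side by side. The study speaks of 8 control and 8 treated biological replicates, and p-values measure the spread between arrays.

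Sinusoidal endothelium differs from that of other vessels in its open pores, its missing basement membrane and its heavy uptake of waste from the blood. Stab1 and Stab2 encode the stabilins, scavenger receptors that take up modified proteins, and Stab2 also clears hyaluronan. Lyve1 encodes a hyaluronan receptor shared with lymphatic vessels, and Clec4g encodes a C-type lectin (LSECtin). The other members are found in most endothelium: Pecam1 and Cdh5 (VE-cadherin) hold neighbouring cells together, Kdr (VEGF receptor 2), Tek (the angiopoietin receptor Tie2) and Eng (endoglin, a co-receptor for BMP9 and TGF-beta) receive growth factors, and Nos3 makes nitric oxide. Hepatocytes are not known as a main source of these transcripts, and every member was well above background in both channels on all 16 arrays. In such bulk RNA, fewer endothelial cells and less RNA per endothelial cell cannot be told apart.

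With SQ1, 5 of the 10 members rose, 0 fell and 5 did not pass the test, against 15.7% of all genes tested that rose and 16.5% that fell. The members' median log2 fold change was 0.10 with a range of -0.09 to 0.47, against -0.002 over all genes. That median was 0.16 with processed signals and 0.18 with median centring in place of loess, against 0.008 and 0.067 over all genes in these settings. The members' median was 0.16 when blocked on scan day, where 3 members rose. With pravastatin, 4 rose, 5 fell and 1 did not pass, against 30.9% of all genes that rose and 35.8% that fell. Their median was -0.10 with a range of -0.59 to 0.27, against -0.01 over all genes. This median was -0.04 with processed signals and -0.0046 with median centring, against 0.046 and 0.042 over all genes in these settings. The pravastatin counts were 1 rose and 4 fell with slide as a random block, and 3 rose and 2 fell with median centring. All calls are at an adjusted p of 0.05 by limma with Benjamini-Hochberg adjustment over the 15053 genes. By that rule 66.7% of all genes were called with pravastatin and 32.3% with SQ1, so that a count of 9 of 10 members called with pravastatin is read against a high background.

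**Figure D1:**
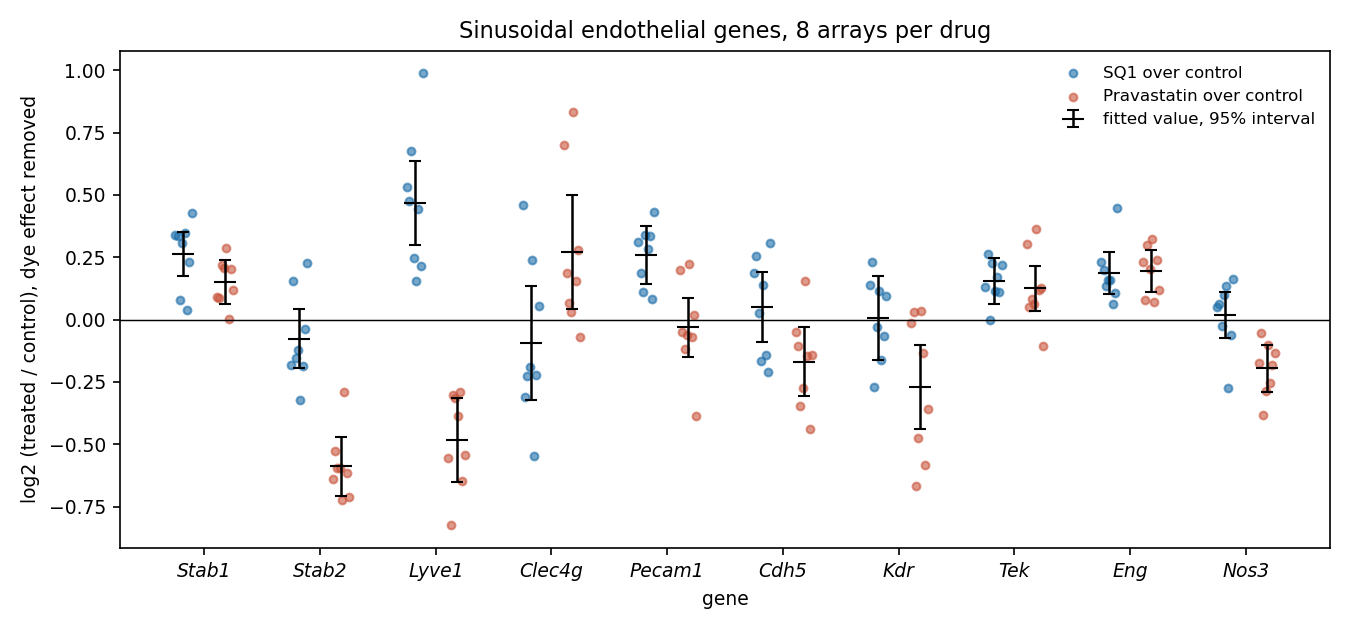
Log2 ratio of treated over control for each member, with the gene's dye effect removed. Each point is 1 array (8 per drug, SQ1 left of pravastatin), and bars give the fitted value with its 95% interval. Lyve1 is the member whose SQ1 points all lie above its pravastatin points, and the share of all genes for which this holds is not given here. Stab2, Lyve1 and Nos3 lie below 0 on all 8 pravastatin arrays, and Stab1 and Eng lie above 0 on all 16 arrays.

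Lyve1 rose 1.38-fold with SQ1. Its mean log2 intensity was 11.60 ± 0.25 in SQ1 channels and 11.13 ± 0.27 in the control channels of those arrays (SD, n = 8 each). The log2 ratio had its lowest value at 0.16, its median at 0.46 and its highest value at 0.99, so that all 8 arrays were above 0. The fitted log2 fold change was 0.47 ± 0.080 (SE), with an adjusted p of 0.00031 by limma, and it ranked 544 of the 15053 genes by size. Replicate 8, at 0.99, had the lowest control level of the set, 10.57, and the fit without it gave 0.39. With pravastatin Lyve1 fell 1.40-fold. Its mean was 10.58 ± 0.30 in pravastatin channels and 11.07 ± 0.27 in control channels (SD, n = 8 each), and the ratios were -0.82, -0.46 and -0.29 at the lowest, median and highest array. Every pravastatin array was below 0, and the fitted change was -0.48 ± 0.080 (adjusted p = 4.75e-05, limma).

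Stab2, the receptor that clears hyaluronan in the sinusoid, fell 1.5-fold with pravastatin. Its mean log2 intensity was 10.41 ± 0.24 in pravastatin channels and 10.996 ± 0.197 in control channels (SD, n = 8 each). The ratio was -0.72 at the lowest, -0.61 at the median and -0.29 at the highest of 8 arrays, all below 0. Its fitted change of -0.59 ± 0.056 (adjusted p = 9.71e-08, limma) was the largest of the 10 members with that drug. With SQ1 the mean was 10.97 ± 0.06 in SQ1 channels and 11.05 ± 0.18 in control channels, and the ratios ran from -0.32 through a median of -0.14 to 0.23. Those arrays lay on both sides of 0, and the change of -0.08 ± 0.056 did not pass the test (adjusted p = 0.317, 95% interval -0.20 to 0.04).

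Stab1, the other stabilin, rose with SQ1. Its mean log2 intensity was 9.29 ± 0.13 in SQ1 channels and 9.02 ± 0.20 in control channels, and the ratio was 0.04, 0.32 and 0.43 at the lowest, median and highest array. All 8 arrays were above 0 with the gene's dye effect removed, and replicate 6 was at -0.02 as measured. The fitted change was 0.26 ± 0.042 (adjusted p = 0.000174, limma), a 1.2-fold rise. With pravastatin the mean was 9.27 ± 0.12 in pravastatin channels and 9.12 ± 0.17 in control channels. The ratios ran from 0.0017 through 0.16 to 0.29, and the lowest, replicate 6, was at -0.06 as measured. The rise of 0.15 ± 0.042 passed the test (adjusted p = 0.00449). That second call was lost with slide as a random block (adjusted p = 0.0552) and on slide 3 alone (0.12, adjusted p = 0.105).

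Clec4g, the lectin, did not pass the test with SQ1 and rose with pravastatin. Its mean log2 intensity was 9.35 ± 0.21 in SQ1 channels and 9.44 ± 0.35 in control channels, and the ratios ran from -0.55 through -0.21 to 0.46. The change with SQ1 was -0.09 ± 0.108 (adjusted p = 0.554). In pravastatin channels the mean was 9.71 ± 0.19, against 9.43 ± 0.26 in control channels, with ratios of -0.07, 0.17 and 0.83 at the lowest, median and highest array. Replicates 1 and 5 were the highest of the 8 pravastatin arrays, at 0.70 and 0.83, and also the highest with SQ1, at 0.46 and 0.24. Their control channels were the lowest for this gene, at 9.001 and 8.77 on SQ1 arrays and at 9.04 and 9.07 on pravastatin arrays. The rise of 0.27 ± 0.108 (adjusted p = 0.0345) was lost without pravastatin replicate 1 (0.21, adjusted p = 0.113), without replicate 5 (0.19, adjusted p = 0.125) and without replicate 7 (adjusted p = 0.059). It was also lost with slide or scan day as a random block (adjusted p = 0.152 and 0.133) and on slide 4 alone (0.08, adjusted p = 0.665), against 0.47 on slide 3.

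**Figure D2:**
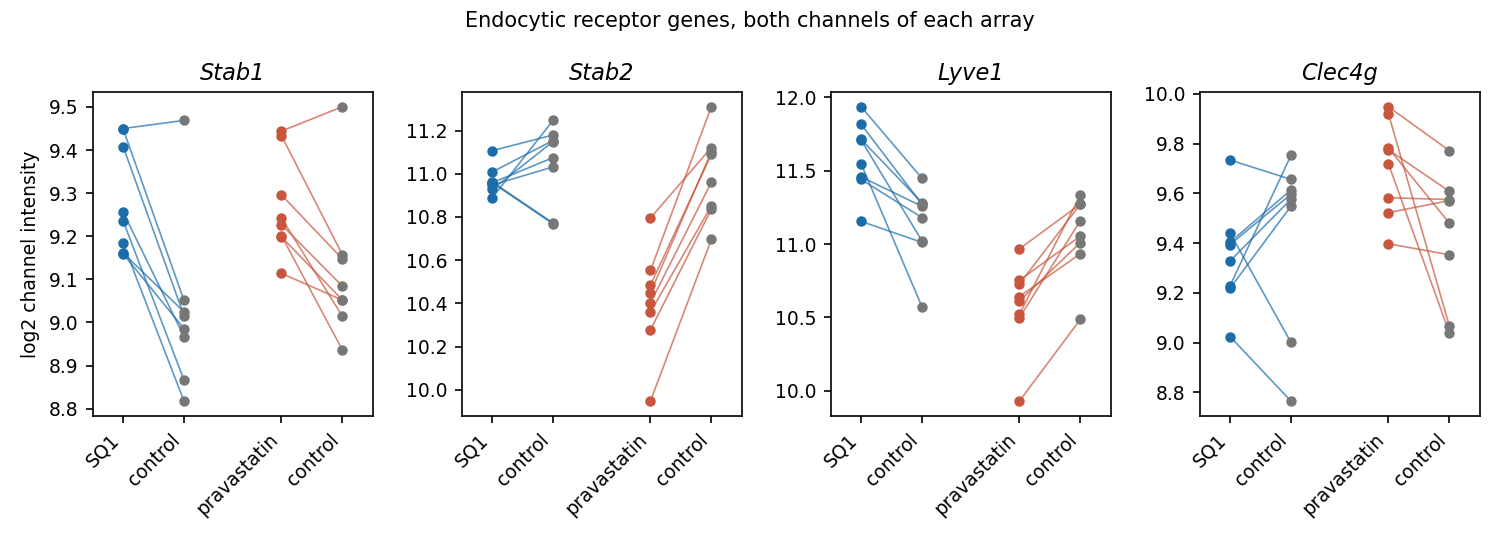
Log2 channel intensity of the endocytic receptor genes, with 1 line per array joining its treated channel (left) to its control channel (right), SQ1 in blue and pravastatin in red. Each panel has its own axis, since levels of different probes are not comparable. For Lyve1 all lines run down from SQ1 to control and up from pravastatin to control, and for Stab2 all 8 pravastatin lines run up to the control.

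Of the junction genes, Pecam1 rose with SQ1. Its mean log2 intensity was 9.04 ± 0.14 in SQ1 channels and 8.78 ± 0.17 in control channels, with ratios of 0.08, 0.30 and 0.43 at the lowest, median and highest array. All 8 lay above 0, and the fitted change was 0.26 ± 0.055 (adjusted p = 0.00184, limma), a 1.2-fold rise. With pravastatin the mean was 8.82 ± 0.19 in pravastatin channels and 8.85 ± 0.14 in control channels, and the ratios ran from -0.39 through -0.06 to 0.22. The change of -0.03 ± 0.055 did not pass (adjusted p = 0.639). Cdh5 had a mean of 12.31 ± 0.09 in SQ1 channels and 12.26 ± 0.20 in control channels, with ratios of -0.21, 0.08 and 0.31 and no call (0.05 ± 0.066, adjusted p = 0.608). With pravastatin Cdh5 averaged 12.12 ± 0.17, against 12.28 ± 0.21 in control channels, with ratios of -0.44, -0.14 and 0.15. It fell by 0.17 ± 0.066 on the log2 scale (adjusted p = 0.0324). The Cdh5 call was lost without pravastatin replicate 3 (adjusted p = 0.0917), replicate 4 (0.0733) or replicate 7 (0.109) and under 6 of 14 other settings, where the value ranged from -0.30 to -0.04.

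Among the growth factor receptors, Eng rose with SQ1, by 0.19 ± 0.039 (adjusted p = 0.00158). Its mean log2 intensity was 8.85 ± 0.10 in SQ1 channels and 8.66 ± 0.11 in control channels, with ratios of 0.06, 0.16 and 0.45 at the lowest, median and highest array. With pravastatin it averaged 8.80 ± 0.13, against 8.61 ± 0.15 in control channels, with ratios of 0.07, 0.21 and 0.32 and a rise of 0.19 ± 0.039 (adjusted p = 0.000325). The SQ1 call did not hold when scan day entered as a random block (adjusted p = 0.0735), and all 8 arrays of each drug were above 0. Tek rose by 0.15 ± 0.043 with SQ1 (adjusted p = 0.0113), with means of 7.92 ± 0.14 in SQ1 channels and 7.76 ± 0.11 in control channels. Its ratios with SQ1 were -0.00056, 0.15 and 0.26. With pravastatin Tek averaged 7.90 ± 0.09, against 7.78 ± 0.12 in control channels, with ratios of -0.11, 0.10 and 0.36 and a rise of 0.12 ± 0.043 (adjusted p = 0.0173). Its median spot intensities were 205.5 in SQ1 channels and 172.5 in their control channels over a local background of 29 and 30. The SQ1 call was lost when blocked on slide (adjusted p = 0.101) or scan day (0.0508) and on slide 2 alone (0.0732). The pravastatin call was lost when blocked on slide (adjusted p = 0.0972) or scan day (0.0832), with median centring (0.0531), with the 8 pravastatin arrays alone (0.0596) and on slide 4 alone (0.549). It was also lost without replicate 1 (adjusted p = 0.0628) or replicate 5 (0.0672).

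Kdr, the VEGF receptor, did not pass the test with SQ1. It averaged 11.09 ± 0.08 in SQ1 channels and 11.09 ± 0.24 in control channels, with ratios of -0.27, 0.03 and 0.23 and a change of 0.006 ± 0.079 (adjusted p = 0.966). With pravastatin it averaged 10.90 ± 0.14, against 11.17 ± 0.22 in control channels, and the ratios were -0.67, -0.25 and 0.03 at the lowest, median and highest array. The fall of 0.27 ± 0.079 on the log2 scale passed the test (adjusted p = 0.00629), but not with processed signals (adjusted p = 0.0561) or median centring (adjusted p = 0.21), and it differed between slides. On slide 4 (replicates 3, 4, 7 and 8) Kdr changed by -0.52 ± 0.066 (adjusted p = 5.9e-06), and on slide 3 (replicates 1, 2, 5 and 6) by -0.02 ± 0.066 (adjusted p = 0.803). The difference of 0.50 ± 0.093 between these slides passed the test itself (adjusted p = 0.00163), as it did for 21.8% of all genes, and Kdr was the only member for which it did. For Cdh5, Tek and Clec4g it did not pass (adjusted p = 0.114, 0.142 and 0.174). Slide 3 was scanned on a different day from slides 1, 2 and 4, and which cultures went on which slide is the same for both drugs. Slide, scan day and cultures therefore cannot be told apart between slides 3 and 4. On the SQ1 slides the same replicate numbers gave -0.07 on slide 2 and 0.08 on slide 1, a difference that did not pass (adjusted p = 0.324).

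**Figure D3:**
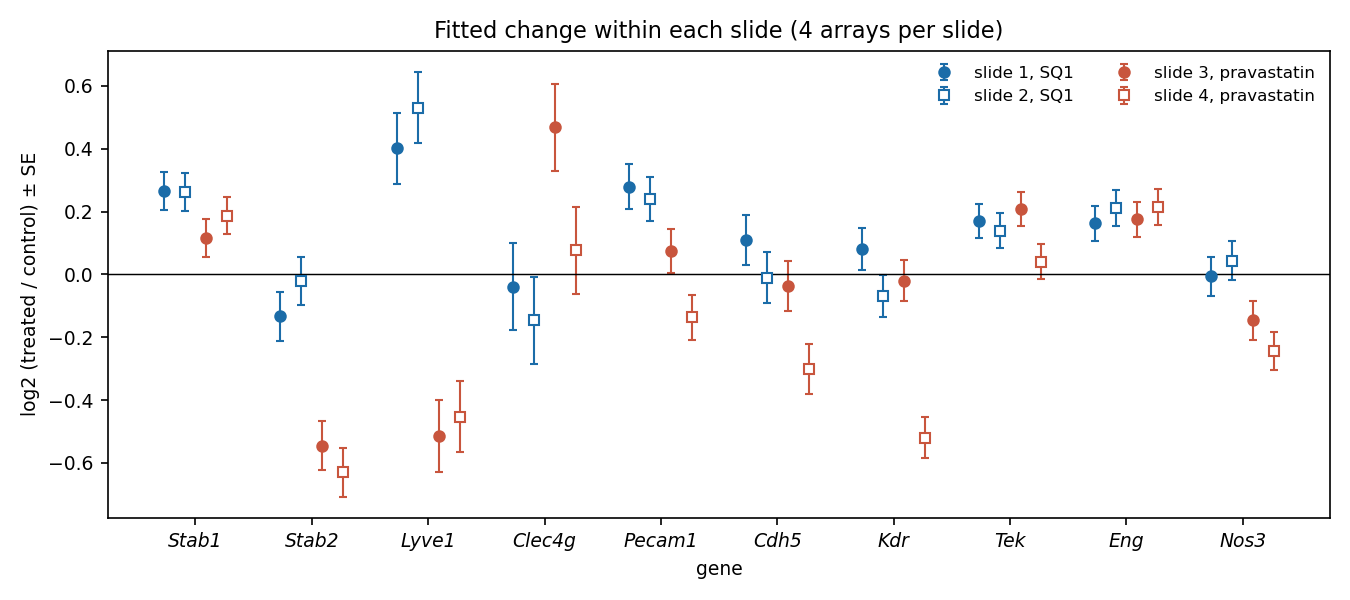
Fitted log2 change within each slide (± SE, 4 arrays per slide), with filled circles for slides 1 and 3, open squares for slides 2 and 4, SQ1 in blue and pravastatin in red. The pravastatin values on slides 3 and 4 are -0.02 and -0.52 for Kdr, 0.47 and 0.08 for Clec4g, 0.21 and 0.04 for Tek and -0.04 and -0.30 for Cdh5. Of these slide differences, that of Kdr passed the test.

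The fall of Kdr also depended on the probe. The value above comes from the brighter probe, printed as 10 spots on the array and averaged. A second Kdr probe, printed as 1 spot and also well above background on all arrays, averaged 8.46 ± 0.08 in pravastatin channels and 8.41 ± 0.05 in control channels. With p-values adjusted over all probes, it gave 0.05 ± 0.031 with pravastatin (adjusted p = 0.231) and 0.06 ± 0.031 with SQ1 (adjusted p = 0.28), so that the probes of Kdr disagreed on the pravastatin response.

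Nos3, the endothelial nitric oxide synthase, fell with pravastatin. It averaged 9.65 ± 0.14 in pravastatin channels and 9.84 ± 0.17 in control channels, with ratios of -0.38, -0.18 and -0.06 at the lowest, median and highest array, all below 0. The fitted change was -0.20 ± 0.044 (adjusted p = 0.00091, limma), and the call was lost with median centring (adjusted p = 0.279). With SQ1 it averaged 9.67 ± 0.14, against 9.65 ± 0.21 in control channels, with ratios of -0.27, 0.06 and 0.16 and no call (0.02 ± 0.044, adjusted p = 0.785). A second, dimmer Nos3 probe, with p-values adjusted over all probes, gave -0.17 ± 0.031 with pravastatin (adjusted p = 0.000134) and 0.11 ± 0.031 with SQ1 (adjusted p = 0.0147). Both probes thus had Nos3 lower with pravastatin, and only the dimmer one passed the test with SQ1.

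**Figure D4:**
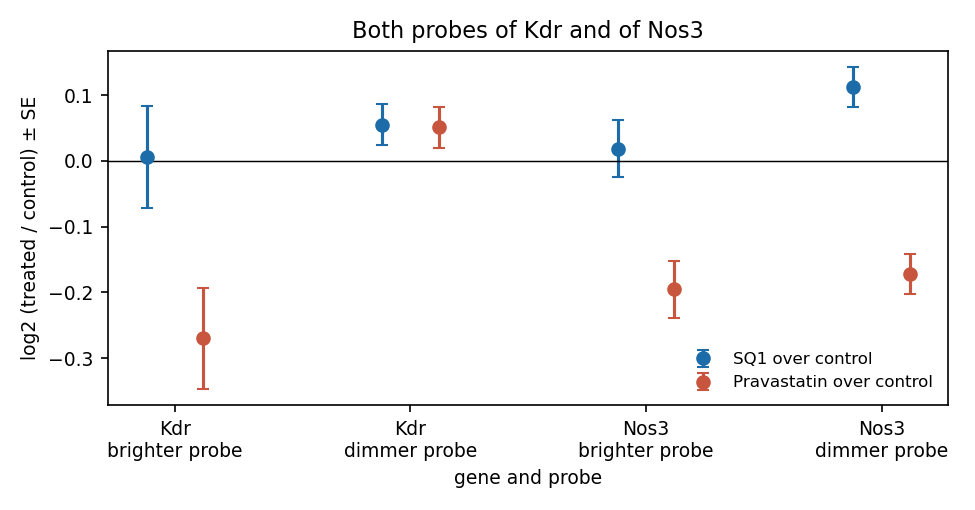
Fitted log2 change (± SE) of both probes of Kdr and of Nos3, SQ1 in blue left of pravastatin in red. The pravastatin values of Kdr are -0.27 at the brighter and 0.05 at the dimmer probe, and those of Nos3 are -0.20 and -0.17.

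The responses to the drugs were then set against each other by the contrast of SQ1 minus pravastatin, with the doses as they were and not matched. Of the 10 members, 5 were called, all higher with SQ1, and 0 lower. Of all genes 53.1% were called, 29.3% higher and 23.8% lower, and the members' median difference was 0.22, against 0.01 over all genes. Lyve1 differed most, by 0.95 ± 0.113 on the log2 scale (adjusted p = 3.22e-06, limma). It was the member whose 8 SQ1 ratios and 8 pravastatin ratios did not overlap. The share of all genes without such overlap is not given here, so that how unusual this is cannot be judged. Stab2 differed by 0.51 ± 0.079 (adjusted p = 5e-05), Pecam1 by 0.29 ± 0.078 (adjusted p = 0.00505) and Nos3 by 0.21 ± 0.062 (adjusted p = 0.00838). Kdr differed by 0.28 ± 0.112 (adjusted p = 0.047), and this call was lost in 10 of the 16 fits that left out 1 array, with values of 0.22 to 0.32 over the 16.

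The remaining members did not differ past the threshold, which does not show that they responded alike. Their differences were 0.11 for Stab1 (95% interval -0.01 to 0.24), 0.22 for Cdh5 (0.02 to 0.42), -0.36 for Clec4g (-0.69 to -0.04), 0.03 for Tek (-0.10 to 0.16) and -0.01 for Eng (-0.12 to 0.11). With the replicate number as a random block, 8 members were called: Stab1 (adjusted p = 0.0446), Cdh5 (adjusted p = 0.00721) and Clec4g, lower with SQ1 (adjusted p = 0.00511), joined the 5. Over all genes 9620 were called with the replicate block, against 7996 in the main fit. With slide as a random block, and likewise with median centring, only Lyve1 and Stab2 were called. In those settings 5716 and 3697 of all genes were called. Each slide held 1 drug, so that a difference between the drugs and a difference between their slides cannot be told apart in this contrast.

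Promoter sequences of 6 members were in the RefSeq table of GRCm38.p6, and those of Stab1 and Eng, which rose with each drug, and of Stab2, which fell with pravastatin, are shown as the 250 bases before the gene's start. Not shown are those of Tek, which also rose with each drug, of Kdr, which fell with pravastatin, and of Clec4g, which rose with pravastatin. Capitals mark the matches of 4 motifs searched on both strands: AGGAAG (the core bound by ETS factors, which direct endothelial genes), AGATAA (bound by factors of the GATA family), CCACCC (KLF factors) and TCACNCCA (the sterol regulatory element through which cholesterol genes respond to sterol shortage).
Stab1 promoter, chr14:31168642-31168891, - strand: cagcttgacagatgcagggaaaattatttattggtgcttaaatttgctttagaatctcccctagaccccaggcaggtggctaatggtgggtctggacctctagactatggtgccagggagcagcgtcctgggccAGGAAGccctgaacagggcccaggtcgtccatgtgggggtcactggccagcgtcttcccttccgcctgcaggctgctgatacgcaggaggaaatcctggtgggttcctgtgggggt
Stab2 promoter, chr10:87007943-87008192, - strand: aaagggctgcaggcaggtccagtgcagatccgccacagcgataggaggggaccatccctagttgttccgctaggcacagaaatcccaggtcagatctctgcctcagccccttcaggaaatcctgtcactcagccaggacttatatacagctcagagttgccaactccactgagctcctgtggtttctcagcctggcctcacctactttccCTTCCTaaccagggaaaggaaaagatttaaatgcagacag
Eng promoter, chr2:32646345-32646594, + strand: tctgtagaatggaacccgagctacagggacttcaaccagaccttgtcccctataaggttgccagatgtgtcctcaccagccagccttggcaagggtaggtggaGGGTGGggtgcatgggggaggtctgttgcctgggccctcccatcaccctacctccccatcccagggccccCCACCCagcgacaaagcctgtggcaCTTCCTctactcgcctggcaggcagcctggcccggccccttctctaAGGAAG

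The Stab1 stretch holds 1 ETS match, 116 bases before the start, and the Stab2 stretch holds 1 ETS match on the opposite strand, 40 bases before the start. The Eng stretch holds 2 ETS matches, at 52 and 6 bases, and 2 KLF matches, at 147 and 77 bases. No match of one motif overlapped a match of another. Among the members not shown, Clec4g had 3 ETS matches and 1 KLF match, Kdr had 1 KLF match and Tek had 0 matches. Members that rose with each drug thus included 1 without a match, Tek. None of the 6 stretches had a GATA or sterol regulatory element match, which says only that these letters are not in these windows. Over 32851 mouse promoters of the same length, 29.5% hold the ETS letters, 28.1% the KLF letters, 9.99% the GATA letters and 3.67% the sterol regulatory element letters.

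Other genes of the sinusoidal endothelium were tested beside the members. Of 14 such genes 13 were tested (Wnt2 was too dim), and with SQ1 5 rose, 0 fell and 8 did not pass, while with pravastatin 4 rose, 4 fell and 5 did not pass. Of all genes 15.7% rose and 16.5% fell with SQ1, and 30.9% and 35.8% with pravastatin. With slide as a random block 3 rose with SQ1 and 1 with pravastatin, with scan day 2 and 2, and with processed signals 6 and 6. In each of these settings 0 fell with SQ1 and 4 fell with pravastatin. Ehd3, an endocytic recycling protein, had a log2 fold change of 0.40 ± 0.073 with SQ1 and -0.60 ± 0.073 with pravastatin, and its difference of 1.00 between the drugs passed the test. F8, coagulation factor VIII, fell by 0.74 ± 0.045 with pravastatin (adjusted p = 5.19e-10). Gpr182, a chemokine-binding receptor, rose by 0.38 ± 0.074 with SQ1, and Rspo3, an enhancer of Wnt signalling, rose by 0.28 ± 0.054 with SQ1 and by 0.30 ± 0.054 with pravastatin. Blocking on scan day ended the SQ1 call of Rspo3 (0.21, adjusted p = 0.0838). Of 20 pan-endothelial genes tested, 3 rose, 1 fell and 16 did not pass with SQ1, and 0 rose, 5 fell and 15 did not pass with pravastatin. With processed signals in place of loess, 5 of these rose and 4 fell with pravastatin, and with slide or scan day as a block 1 rose and 0 fell with SQ1. Flt1 (VEGF receptor 1) rose by 0.30 ± 0.075 and the guidance receptor Robo4 by 0.19 ± 0.049 with SQ1. S1pr1, the sphingosine-1-phosphate receptor of endothelial barriers, changed by -0.21 ± 0.050 with SQ1 and by -0.95 ± 0.050 with pravastatin. The tight junction gene Cldn5 fell by 0.49 ± 0.048 and the adhesion gene Icam2 by 0.22 ± 0.063 with pravastatin. The SQ1 call of S1pr1 was lost under median centring (adjusted p = 0.558) and with slide (0.054) or scan day (0.177) as a block. The pravastatin call of Icam2 was lost in the same settings (adjusted p = 0.234, 0.0606 and 0.0549), and the SQ1 call of Robo4 under both blocks (0.0782 and 0.0833).

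The ligands and partners of the member receptors were also on the array. Over all genes, 15.7% rose and 16.5% fell with SQ1, and 30.9% and 35.8% with pravastatin. Of 18 ligands and partners tested, 3 rose, 3 fell and 12 did not pass with SQ1. With pravastatin 7 rose, 4 fell and 7 did not pass. Gdf2, which encodes BMP9, a ligand of the Eng complex, rose by 1.17 ± 0.145 with SQ1 (adjusted p = 1.61e-05). Angpt1, a ligand of Tek, fell by 1.65 ± 0.104 with pravastatin (adjusted p = 7.29e-10). Nrp2, a co-receptor for VEGF family ligands, changed by -0.25 ± 0.055 with SQ1 and by 0.35 ± 0.055 with pravastatin. Pgf, a VEGF family ligand, fell by 0.22 ± 0.058 with SQ1, and Id1, a target of BMP signalling, rose by 0.46 ± 0.126 with pravastatin. The SQ1 call of Nrp2 was lost under median centring (adjusted p = 0.281) and with the scan-day block (0.112), and that of Pgf under median centring (0.0802) and with the slide (0.0904) and scan-day blocks (0.178). With scan day as a block 1 of the 18 rose and 1 fell with SQ1, and under median centring 3 rose and 0 fell. Around Nos3, 15 genes of the Klf2 programme and of nitric oxide synthesis were tested, of which 2 rose, 1 fell and 12 did not pass with SQ1 and 5 rose, 6 fell and 4 did not pass with pravastatin. Klf4, a flow-responsive transcription factor, rose by 1.19 ± 0.079 with pravastatin, and Thbd, thrombomodulin, rose by 1.05 ± 0.147. Cav1, caveolin-1, which binds and restrains Nos3 protein, changed by -0.65 ± 0.071 with SQ1 and by -0.80 ± 0.071 with pravastatin. Gucy1a1, a subunit of the nitric oxide receptor, rose by 0.36 ± 0.082 with SQ1 and did not pass with pravastatin. The chaperone gene Hsp90aa1 rose by 0.17 ± 0.062 with SQ1 and by 0.31 ± 0.062 with pravastatin. With scan day as a block the SQ1 calls of Gucy1a1 (0.27, adjusted p = 0.16) and Hsp90aa1 (0.24, adjusted p = 0.0944) were lost. With slide as a block the SQ1 call of Hsp90aa1 was lost too (adjusted p = 0.144). Arg1, an arginase abundant in hepatocytes, fell by 3.79 ± 0.233 with pravastatin.

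**Figure D5:**
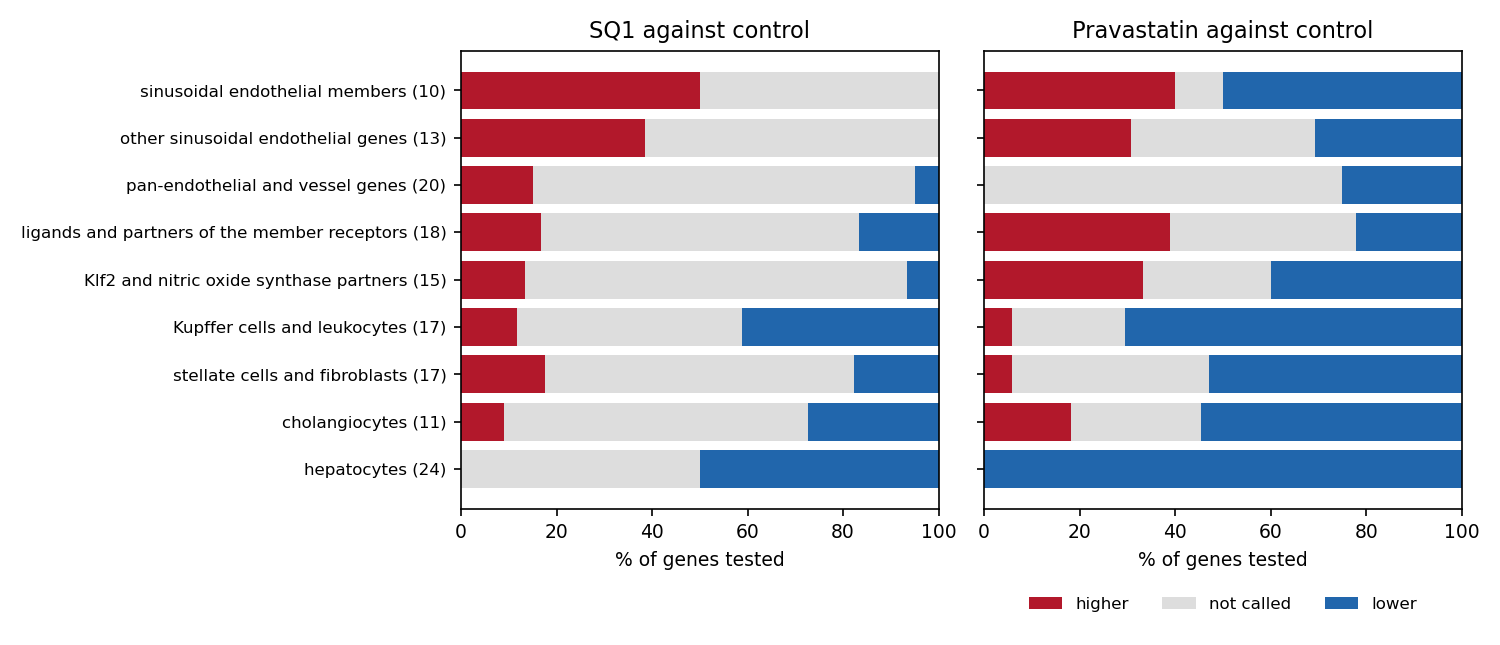
Share of the tested genes of each list (number in brackets) that were higher, not called or lower against control, for SQ1 (left) and pravastatin (right), limma adjusted p of 0.05. The 10 members and the other sinusoidal genes hold no lower calls with SQ1, and the 24 hepatocyte genes are all lower with pravastatin. Of all genes tested, 16.5% were lower with SQ1 and 35.8% with pravastatin.

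Markers of the other liver cells were tested as well. Of all genes 15.7% rose and 16.5% fell with SQ1, and 30.9% and 35.8% with pravastatin. With pravastatin 66.7% of all genes were called, so that counts of calls are read against a high background. Of 25 hepatocyte genes 24 were tested (Cyp7a1 was too dim), and their mean log2 intensity was 15.1 to 15.5 in SQ1 channels, 13.6 to 14.3 in pravastatin channels and 15.3 to 16.2 in control channels. With SQ1, 12 fell, 0 rose and 12 did not pass (6 fell under median centring). With pravastatin all 24 fell, with a median of -1.40 (21 under median centring). Cyp3a11, a drug-metabolizing enzyme, fell by 4.58 ± 0.248 and the glucose transporter Slc2a2 had a log2 fold change of -4.55 ± 0.171 with pravastatin. The mean log2 intensity of the 10 members was 9.87 to 10.07 in SQ1 channels, 9.52 to 10.03 in pravastatin channels and 9.70 to 10.10 in control channels. Of 17 Kupffer cell and leukocyte genes tested of 18, 2 rose, 7 fell and 8 did not pass with SQ1, and 1 rose, 12 fell and 4 did not pass with pravastatin. Their mean log2 intensity was 9.47 to 10.20 in SQ1 channels, 9.37 to 10.06 in pravastatin channels and 9.57 to 10.35 in control channels. With SQ1 Cd5l, a protein secreted by macrophages, fell by 0.79 ± 0.070 and the macrophage gene Adgre1 by 0.64 ± 0.065. The folate receptor gene Folr2 fell by 0.49 ± 0.057 with SQ1, and the 2 genes of the list that rose changed by less. Cd5l, Adgre1 and Folr2 were also lower with pravastatin, at -0.62 ± 0.070, -0.30 ± 0.065 and -0.51 ± 0.057. With pravastatin the complement receptor gene Vsig4 fell by 1.08 ± 0.080 and the complement gene C1qa by 0.86 ± 0.056. The 1 gene of the list that rose with pravastatin was Cd14, a co-receptor for bacterial lipopolysaccharide, by 0.92 ± 0.110 (adjusted p = 1.48e-06, limma).

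The next 2 lists are read against the same shares of all genes, 15.7% higher and 16.5% lower with SQ1 and 30.9% and 35.8% with pravastatin. Of 17 stellate cell and fibroblast genes, 3 rose, 3 fell and 11 did not pass with SQ1. With pravastatin 1 of them rose, 9 fell and 7 did not pass (4 fell under median centring). Their mean log2 intensity was 10.49 to 10.997 in SQ1 channels, 10.41 to 10.84 in pravastatin channels and 10.51 to 11.02 in control channels. Lrat, which stores retinol in stellate cells, rose by 0.95 ± 0.102 with SQ1, the growth factor receptor gene Pdgfra rose by 0.33 ± 0.076 and the smooth muscle gene Tagln fell by 0.31 ± 0.074. With scan day as a block the SQ1 calls of Pdgfra (adjusted p = 0.179) and Tagln (0.131) were lost, and that of Tagln also with the slide block (0.067) and median centring (0.224). In each of these settings 0 of the 17 fell with SQ1. Timp1, an inhibitor of matrix proteases, rose by 0.72 ± 0.098 with pravastatin, while Tagln fell by 0.56 ± 0.074 and the neurotrophin receptor gene Ngfr by 0.47 ± 0.077. Of 11 cholangiocyte genes, 1 rose, 3 fell and 7 did not pass with SQ1, and 2 rose, 6 fell and 3 did not pass with pravastatin. With SQ1 the secreted protein gene Spp1 fell by 0.65 ± 0.119, the keratin gene Krt19 fell by 0.50 ± 0.122 and the tight junction gene Cldn4 rose by 0.23 ± 0.076, and with scan day as a block none of the 3 passed (adjusted p = 0.0549, 0.132 and 0.0971). With pravastatin Cldn4 rose by 0.94 ± 0.076, while Prom1 fell by 0.73 ± 0.148 and the transcription factor gene Sox9 by 0.55 ± 0.063. The part of these other cell types in the members' values was not tested.

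Arrays differed beyond the drug, and some members moved together from array to array. With each gene's dye effect and drug means removed, the 45 pairs of members had correlations over the 16 arrays from -0.24 to 0.85, with a median of 0.36, and 14 pairs were above 0.5. The highest were 0.85 for Pecam1 and Tek, 0.78 for Stab1 and Eng and 0.76 for Kdr and Cdh5. These are descriptions over arrays that share slides and control cultures. The genes most like Stab1 by this measure were Ksr1 (0.86), Tug1 (0.82) and Entpd1 (0.82), among 14966 genes measured on all arrays. For Stab2 they were Tbx22 (0.81), Sall1 (0.79) and Dock10 (0.78), and for Lyve1 they were Clca3a2 (0.91), Clca3a1 (0.90) and Anxa1 (0.88), where the Clca3a probes belong to near-identical paralogs and may share signal. The median residual correlation of Lyve1 was 0.51 with the 17 stellate and fibroblast genes, 0.30 with the 13 other sinusoidal genes, 0.29 with the 20 pan-endothelial genes and 0.14 with the other 9 members, against 0.02 over all genes.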

How the data were processed

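The 16 deposited scanner files were used, 1 per two-colour Agilent array. The authors' files hold unnormalized median pixel intensities of each spot and of its local background. They also hold processed intensities that Agilent Feature Extraction 11.0.1.1 had background-subtracted, detrended and dye-normalized, and a log10 ratio of red over green, per the file headers. Values of the deposited series table are in log2 units. Per array its values correlated by 0.742 to 0.999 with Agilent's ratio of treated over control. Its column medians are -0.068 to 0.140, and its centring is unknown, so that it served as an alternative only. Flags of 0 or 1 per spot came with the deposited files.

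Intensities were corrected by normexp (offset 50) and normalized within arrays by loess in limma 3.58.1 (R 4.3.3), and spots of 1 probe were averaged. The 44397 spots hold 43020 that are not controls, or 39429 probes, of which 27234 were named through their RefSeq accession and 12195 were not. A probe was tested if well above background on at least 4 treated channels of a drug or 8 control channels and if 7 or more arrays per drug gave a ratio. The brightest probe stood for a gene. All 16 arrays were fitted with drug coefficients of opposite sign by dye orientation and a constant dye effect, leaving 13 residual degrees of freedom. Tests were two-sided, and p-values were adjusted over 15053 genes. The fit was tested on simulated data. Errors after ± are SE for fold changes and SD for levels. Channel levels are log2 intensities after loess and Aquantile scaling. The number of arrays limits the precision.

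Same-numbered arrays of the drugs deviated together (correlations 0.22 to 0.72 for all 8 numbers), and the deposited names give both the same control number. In the fits, the numbers paired the samples only in the alternative with replicate number as a random block. The main fit used no pairing. An array correlated best with its own number for 3 of the 8 (4, 5 and 6). Arrays of a slide correlated by 0.27 and those of a replicate number by 0.47 in fits with random blocks. Members, lists and tests were chosen with earlier results of these data known. Named beside the members were at most the 3 called genes of each list with the largest change per drug, and the 3 genes most like Stab1, Stab2 and Lyve1. Alternatives were other background corrections, median centring, the series table, other filters, all probes of a gene, slide, scan day or replicate blocks, single slides, array weights, the 8 arrays of a drug alone and leaving out each array.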

Additional observations from a re-analysis of the deposited data

Results flagged for a closer look

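Each member and drug formed a group of 8 arrays, 20 groups in all, and chance marks about 1 in 20 of them as holding an array far from the others. The log2 ratio of Stab2 on pravastatin replicate 6 was -0.29, against -0.53 on the nearest array and -0.72 at the other end of the group. The log2 ratio of Eng on SQ1 replicate 8 was 0.45, against 0.23 on the nearest array and 0.06 at the other end. Without these arrays the fitted changes kept their sign and their calls.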

How the results depend on the processing

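Stab1, Lyve1 and Pecam1 with SQ1, and Stab2, Lyve1 and Eng with pravastatin, kept their direction and their call under all 14 other settings and all 16 fits that left out 1 array. Over members and comparisons, 336 of 390 values under other settings kept both, 36 lost the call, 7 gained one and 11 turned direction, and of 480 values without 1 array the numbers were 441, 18, 9 and 12. Blocking on scan day, 3 members were called with SQ1 (3 higher) and 2 were higher with pravastatin. With slide as a random block 5 members were called with pravastatin (1 higher), and 2 in the difference (2 higher). With median centring 5 members were called with pravastatin (2 lower) and 2 in the difference (2 higher). Processed signals and the authors' series table each left 3 lower with pravastatin and 1 lower in the difference, slide 3 alone left 3 lower, slide 4 alone 2 higher, and array weights 1 lower in the difference. With the replicate block 8 members were called in the difference (1 lower), and no member's call against control changed. Over all genes, 2071 were called with SQ1 under median centring, 2543 with the slide block and 2239 with the scan-day block, against 4860. In the difference 3697 were called under median centring, 5716 with the slide block and 9620 with the replicate block, against 7996. The share of called genes that were higher was 71.1% with SQ1 and 61.0% with pravastatin under median centring, against 48.7% and 46.3%. Under processed signals it was 56.8% with pravastatin and 44.7% in the difference, against 46.3% and 55.1%. Under the series table it was likewise 56.8% and 44.7%.

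Leaving out 1 array gave 5 to 5 members called with SQ1 (0 to 0 lower, 4051 to 5104 genes), 7 to 9 with pravastatin (2 to 4 higher, 4 to 5 lower, 9612 to 10045 genes) and 4 to 7 in the difference (4 to 7 higher, 0 to 1 lower, 7480 to 8273 genes). The 2 higher with pravastatin came without replicate 1 or 5. No called value changed sign. Uncalled ones that did were, with SQ1, Stab2 (0.035, median centring), Kdr (-0.031, array weights, and -0.068, slide 2), Cdh5 (-0.0099, slide 2), Clec4g (0.014, scan-day block) and Nos3 (-0.0063, slide 1). With pravastatin Pecam1 gave 0.034 (processed signals and series table), 0.027 (median centring) and 0.075 (slide 3), and in the difference Eng gave 0.013 (median centring). Without 1 array the ranges were -0.028 to 0.049 for Kdr and -0.0032 to 0.064 for Nos3 with SQ1, -0.070 to 0.024 for Pecam1 with pravastatin, and -0.0060 to 0.067 for Tek and -0.048 to 0.012 for Eng in the difference. The cause of these changes was not tested. Scaled to the 75th percentile, 13 of the member and drug pairs had a higher treated than control level, against 12.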
